A study of Mus musculus with 6 samples.

Results

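The 9 genes described here are Lin28a, Lin28b, Trim71, Igf2bp1, Igf2bp2, Igf2bp3, Hmga1, Hmga2 and Dis3l2, taken by name, with no threshold on their values, from the 24736 genes of the deposited table. All 9 had enough counts to be tested, together with 14468 genes in all. They were compared between mouse embryonic stem cells (ESCs, 0 h) and epiblast-like cells (EpiLCs, 48 h), with 3 biological replicates of each. Both groups are WT cells of a single XY ESC line, HM1 TetON, which carries the transactivator for doxycycline-inducible transgenes. The ESCs were kept on mitotically inactivated mouse embryonic fibroblasts in medium with serum and LIF. The labels give 48 h for the EpiLC libraries, as does the results text of the study, whereas its culture methods describe a longer time. The EpiLCs were made from the ESCs in serum-free N2B27 medium with bFGF and LGK974, an inhibitor of WNT secretion, after the feeder cells had been removed by plating. Medium, feeder cells and time changed together between the groups and cannot be told apart. In bulk RNA, fewer cells of a type and less RNA per cell cannot be told apart either.

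LIN28A and LIN28B are RNA-binding proteins that bind the loop of let-7 precursors and block their maturation, and LIN28A recruits terminal uridylyltransferases that mark the precursor for decay by DIS3L2. Mature let-7 in turn represses mRNAs that carry matches to its seed in their 3′ UTRs, among them both Lin28 genes, Trim71, Hmga2 and the Igf2bp genes. In the mouse embryo, LIN28 is high in the epiblast and let-7 rises as cells differentiate. TRIM71 is an RNA-binding ubiquitin ligase of the same heterochronic pathway, IGF2BP1 to IGF2BP3 bind and stabilize mRNAs such as Igf2, and HMGA1 and HMGA2 are architectural chromatin proteins that bind AT-rich DNA.

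The mature sequences of 4 let-7 family members are shown because their common seed, bases 2 to 8 in capitals, defines the sites searched for in the 9 genes. They are from RefSeq (GRCm38.p6), 5′ to 3′. All 9 mature family members matched there carry the same seed and are 22 bases long.
mmu-let-7a-5p: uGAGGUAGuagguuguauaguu
mmu-let-7e-5p: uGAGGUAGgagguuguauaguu
mmu-let-7g-5p: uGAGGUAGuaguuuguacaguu
mmu-miR-98-5p: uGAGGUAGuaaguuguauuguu

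Seed matches were searched on the sense strand of the 3′ UTRs of GENCODE transcripts as CTACCTCA (8mer), CTACCTC without the final A (7mer-m8) and TACCTCA without the leading C (7mer-A1), so that no site was counted more than once. At least 1 match lay in the 3′ UTR of 8 of the 9 genes and an 8mer in 7, against 13.8% and 2.8% of all 21005 3′ UTRs. The 9 genes were picked partly as known let-7 targets, so an excess of matches, here and below, follows from that choice. The members have long 3′ UTRs, so each was also set beside UTRs within 25% of its own length. Hmga2 held 7 matches in 3014 bases, and 0.04% of UTRs of like length held as many. Trim71 held 6, of which 4 were 8mers, and 0.22% of like UTRs held as many. Of these 6, 3 lie within the RefSeq gene, since the GENCODE transcript runs further. Lin28b and Igf2bp1 held 5 each (0.33% and 0.59% of like UTRs), and Lin28a and Igf2bp2 held 2 each (4.34% and 2.54%). Igf2bp3 held a single 8mer, with as many in 22.06% of like UTRs, and Hmga1 a single 7mer-m8, with as many in 12.71%. Dis3l2 held none in 350 bases, a length at which 5.2% of UTRs held any. A match is a stretch of letters and was not tested for binding.

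The first site of each gene after the stop codon is shown to let the shared core be compared between genes. Capitals mark the seed match, and the flanks differ.
Lin28a chr4:134005181-134005210 (-): cacagcctgttgaaCTACCTCAtttttgcc
Lin28b chr10:45381014-45381043 (-): cccgggcgggaagtCTACCTCAtgcaagca
Trim71 chr9:114512464-114512493 (-): acattgcctaagtcCTACCTCAgcttaaat
Igf2bp1 chr11:95961770-95961799 (-): ctgtgcgaagtaaaCTACCTCAaggtgtga
Igf2bp2 chr16:22059465-22059494 (-): cacacaaataaaagCTACCTCAggtgtttt
Igf2bp3 chr6:49086779-49086808 (-): gcatttttactcaaCTACCTCAggtattca
Hmga1 chr17:27563278-27563307 (+): cctctgttcacaaaCTACCTCtggacggtt
Hmga2 chr10:120364216-120364245 (-): ccgacattcaatttCTACCTCAgcatcagt
Coordinates are on GRCm38, the assembly known as mm10. Each site lies in the 3′ UTR, and all but that of Hmga1 are 8mers. Dis3l2, which has no site, lies at chr1:86701924-87050097 (+).

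Library totals ran from 16967741 to 35096210 expected counts, and ESC replicate 2 was the shallowest. Both cell identities matched their markers, with summed TPM (transcript abundance scaled for transcript length and library) of 6 naive pluripotency genes between 1465 and 1936 in ESCs and between 47.1 and 67.3 in EpiLCs, and of 5 EpiLC genes between 292.9 and 399.0 in ESCs and between 2055 and 2125 in EpiLCs. The ESC libraries differed among themselves in the markers of other cells. The sum of 15 fibroblast markers was 330.3, 1339.5 and 121.4 TPM for ESC replicates 1, 2 and 3 and 58.4 to 101.3 TPM in EpiLCs. The sum of 4 primitive streak markers was 401.1, 155.9 and 121.5 TPM in ESCs and 7.51 to 44.5 TPM in EpiLCs, and that of 6 primitive endoderm markers was 56.1, 42.2 and 32.4 TPM in ESCs and 10.1 to 10.5 TPM in EpiLCs. In each of 3 libraries (ESC replicate 3 and EpiLC replicates 1 and 2), 1 gene of the fibroblast list was at 0.

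Of the 9 genes, 6 passed an adjusted p of 0.05 in edgeR's quasi-likelihood test, against 45.4% of all genes tested. Lin28a, Lin28b, Igf2bp3 and Hmga1 were higher in EpiLCs, where 22.6% of all genes were called higher. Igf2bp1 and Hmga2 were lower, where 22.8% of all genes were called lower. Trim71, Igf2bp2 and Dis3l2 did not pass. The calls thus went in both directions. The median log2 fold change of the 9 was -0.13, against -0.0017 over all genes tested. Lin28b and Hmga2 passed with an absolute log2 fold change above 1, as 20.2% of all genes tested did. The TPM of the groups did not overlap for 7 of the 9, against 59.5% of all genes tested. Of these, 4 lay higher in EpiLCs (33.8% of all genes) and 3 lower (25.6% of all genes). Without EpiLC replicate 1 or without EpiLC replicate 3 only 2 members were called higher, and without ESC replicate 2, 4 were called lower.

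**Figure D1:**
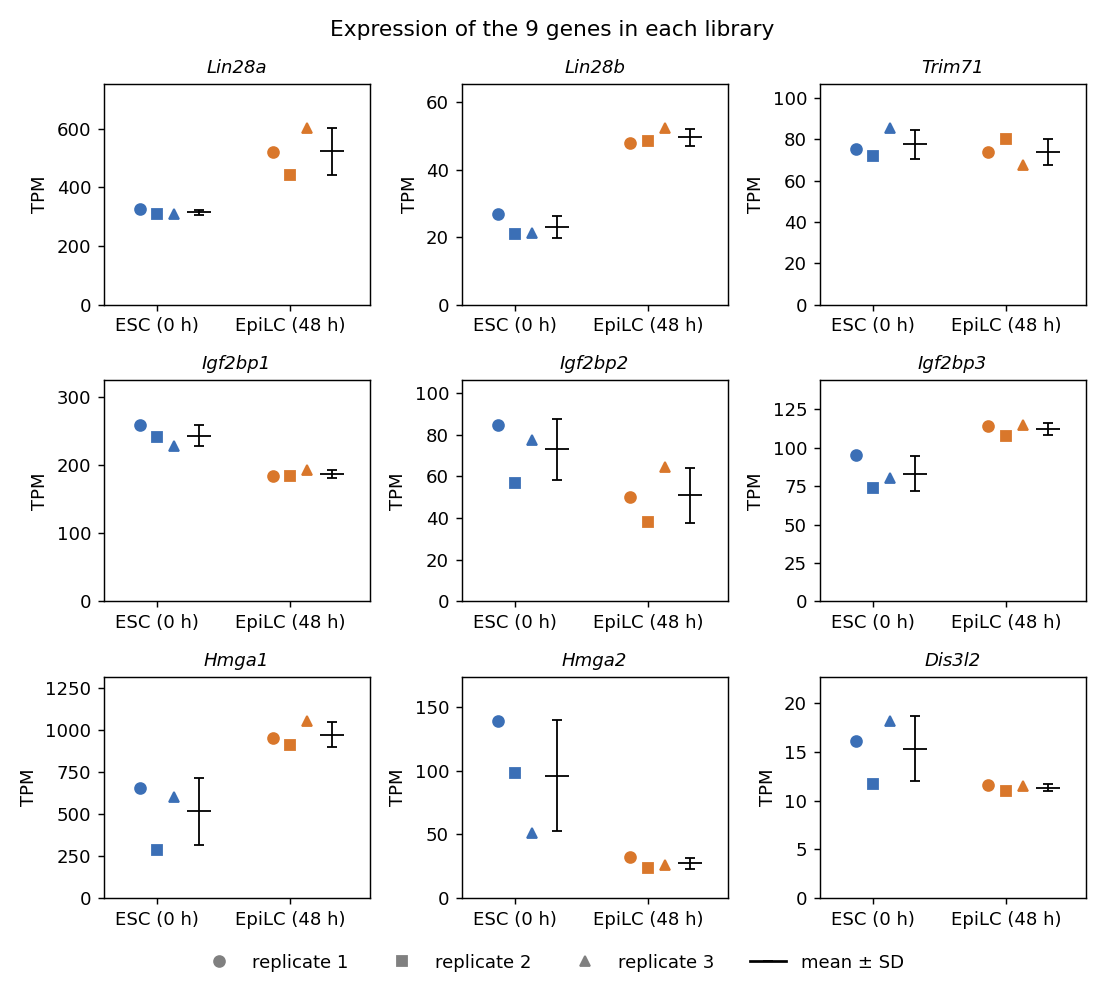
TPM of each of the 9 genes (vertical axes, linear, from 0) in ESC (blue) and EpiLC (orange) libraries, with symbols for replicates 1 to 3 and bars for the mean ± SD (n = 3). Lin28a and Lin28b lie higher in every EpiLC library, Hmga2 lies lower in every EpiLC library with ESC values from 51.2 to 138.7, and Trim71 and Igf2bp2 overlap between the groups.

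Both Lin28 genes rose. Lin28a, the form abundant in pluripotent cells, had 325.1, 310.3 and 309.1 TPM in the ESC libraries, listed here and below by replicate from 1 to 3, against 522.0, 444.2 and 603.1 TPM in the EpiLC libraries. Every EpiLC library was above every ESC library, and the spread was wider in EpiLCs (523 ± 79.5, SD, n = 3) than in ESCs (315 ± 8.89, SD, n = 3). The log2 fold change was 0.68 (SE 0.11), or 1.61-fold, with an adjusted p of 0.00359 in edgeR's test.

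Lin28b, its paralog, was measured at 26.8, 21.1 and 21.2 TPM in ESCs and at 47.8, 48.6 and 52.4 TPM in EpiLCs. The groups were far apart, with means of 23.0 ± 3.25 and 49.6 ± 2.45 TPM (SD, n = 3). Its level rose 2.08-fold, a log2 fold change of 1.06 (SE 0.11), with an adjusted p of 4.70e-04 in edgeR's test, and both Lin28 genes stayed called without any single library.

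Lin28a remained the main Lin28 transcript per length in every library. The mean ± SD of their sum (n = 3) was 338 ± 12.1 TPM in ESCs, against 573 ± 81.4 TPM in EpiLCs. Lin28b made up 7.61%, 6.36% and 6.41% of the sum in ESCs and 8.39%, 9.86% and 7.99% in EpiLCs. Its share was thus higher in each EpiLC library, by 1.95 percentage points in the mean (exact permutation test, two-sided, p = 0.1, the smallest that 3 against 3 allows).

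The genes with the profile most like Lin28a over the 6 libraries, by the smallest Euclidean distance of mean-centred log2 CPM, were 3110009E18Rik (0.153), Sms (0.158), which encodes spermine synthase, and Polg2 (0.169), which encodes the accessory subunit of the mitochondrial DNA polymerase. Those most like Lin28b were Ccnj (0.119), a cyclin gene, Klhdc2 (0.152), which encodes a substrate receptor of a ubiquitin ligase, and Lrp3 (0.152). Ccnj was at 6.46 to 7.46 TPM in ESCs and 14.2 to 15.2 TPM in EpiLCs.

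Trim71 did not move beyond its spread. It was measured at 75.2, 72.2 and 85.5 TPM in ESCs and at 73.8, 80.1 and 67.4 TPM in EpiLCs. The groups overlap, with means of 77.6 ± 7.01 and 73.7 ± 6.37 TPM (SD, n = 3). The log2 fold change was -0.13 with a 95% interval from -0.34 to 0.09 (adjusted p = 0.286, edgeR), an interval that leaves out the size of change seen for either Lin28 gene.

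Dis3l2, the exonuclease that degrades uridylated let-7 precursors, was the lowest of the 9 genes in both groups. It was measured at 16.2, 11.7 and 18.2 TPM in ESCs and at 11.6, 11.0 and 11.5 TPM in EpiLCs. All EpiLC values were below all ESC values, but ESC replicate 2 was barely above the highest EpiLC library. The log2 fold change was -0.49 (95% interval -0.89 to -0.09) with an adjusted p of 0.0516 in edgeR's test. Without ESC replicate 2 it was -0.65, with an adjusted p of 0.00298.

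The Igf2bp genes did not move together. Igf2bp1 was measured at 260.2, 242.4 and 229.3 TPM in ESCs and at 183.8, 185.1 and 193.8 TPM in EpiLCs. The groups were separate and each was tight (244 ± 15.5 and 188 ± 5.40 TPM, SD, n = 3). It fell by 0.43 on the log2 scale (SE 0.06), so that its level fell by 25.8%, with an adjusted p of 0.00179 in edgeR's test, and stayed called without any single library.

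Igf2bp3 went the other way. It was measured at 95.5, 74.0 and 80.1 TPM in ESCs and at 114.2, 107.7 and 115.1 TPM in EpiLCs, so the groups did not overlap. It rose by 0.38 on the log2 scale (SE 0.10) with an adjusted p of 0.0183 in edgeR's test. The call was lost without EpiLC replicate 1 (adjusted p = 0.0655) and without EpiLC replicate 3 (adjusted p = 0.0601), at log2 fold changes of 0.37 and 0.36.

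Igf2bp2 was measured at 84.9, 56.6 and 77.3 TPM in ESCs and at 50.2, 38.2 and 64.4 TPM in EpiLCs. The highest EpiLC library lay above the lowest ESC library, and replicate 2 was the lowest of each group. The log2 fold change was -0.57 (95% interval -1.10 to -0.04) with an adjusted p of 0.0759 in edgeR's test. It was called without ESC replicate 2 (-0.72, adjusted p = 0.0269) and without EpiLC replicate 3 (-0.78, adjusted p = 0.0378).

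Per length, Igf2bp3 took a larger share of the family in each EpiLC library than in any ESC library. The sum of the 3 genes (mean ± SD, n = 3) was 400.1 ± 35.7 TPM in ESCs, against 351 ± 21.3 TPM in EpiLCs (exact permutation test, two-sided, p = 0.2). Igf2bp3 made up 21.7%, 19.8% and 20.7% of it in ESCs and 32.8%, 32.5% and 30.8% in EpiLCs. Igf2bp1 made up 59.0%, 65.0% and 59.3% in ESCs and 52.8%, 55.9% and 51.9% in EpiLCs, and remained the main form in every library. For both shares the groups did not overlap (differences of 11.3 and -7.57 percentage points, exact permutation test, two-sided, p = 0.1 each, the smallest possible). The share of Igf2bp2 was 18.1% ± 2.60 in ESCs and 14.4% ± 2.86 in EpiLCs (SD, n = 3), with overlap (exact permutation test, two-sided, p = 0.2).

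**Figure D2:**
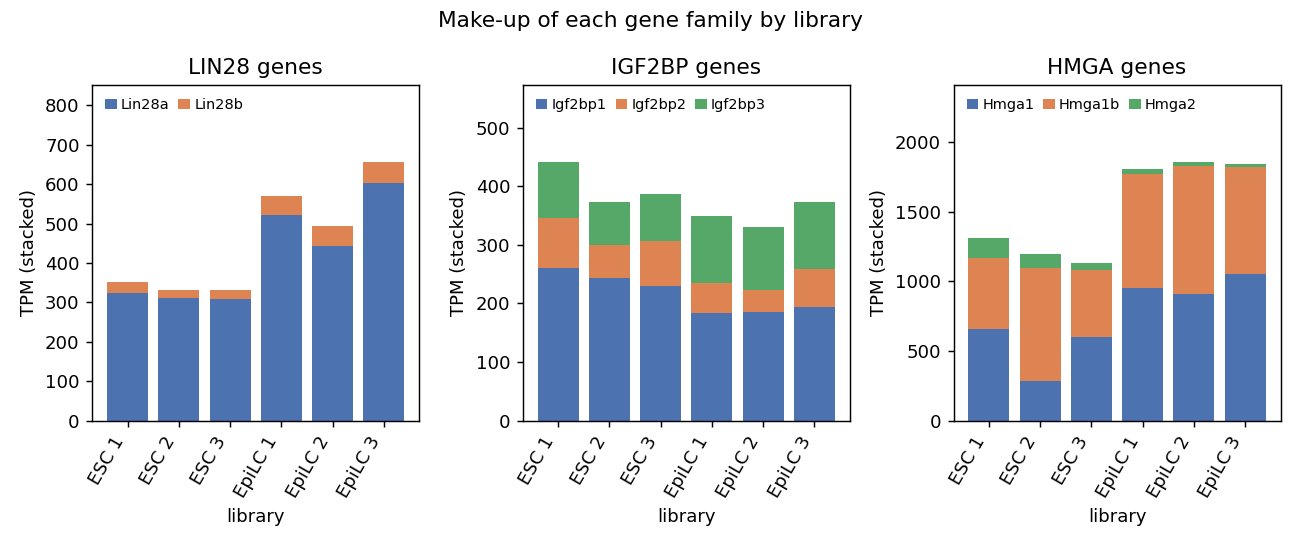
Stacked TPM of the Lin28, Igf2bp and Hmga genes (vertical axes, linear, from 0) in each of the 6 libraries. The Lin28 stack is taller in EpiLCs, the Igf2bp3 segment takes 30.8% to 32.8% of its stack in EpiLCs against 19.8% to 21.7% in ESCs, and Hmga1 and Hmga1b divide differently in ESC replicate 2 although their sum there is like that of the other ESC libraries.

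Hmga2 showed the largest change among the 9 genes. It had 138.7, 98.4 and 51.2 TPM in ESCs, against 32.0, 23.7 and 26.0 TPM in EpiLCs. All EpiLC libraries were below all ESC libraries, while the ESC libraries spread 2.71-fold among themselves (96.1 ± 43.8 against 27.2 ± 4.28 TPM, SD, n = 3). It fell by 1.86 on the log2 scale (SE 0.33), with an adjusted p of 0.00464 in edgeR's test. Without ESC replicate 1, the highest library, the log2 fold change was -1.52 (adjusted p = 0.00982), and without ESC replicate 2, which had the most fibroblast marker RNA, it was -1.85 (adjusted p = 0.00781). The order of the ESC libraries in Hmga2 was that of the primitive streak and primitive endoderm sums given above, and not that of the fibroblast sum. Within those streak and endoderm lists, T, Mixl1, Evx1, Gata4 and Dab2 had this order, and Eomes, Gata6, Sox17, Sox7 and Foxa2 did not. The part of primitive streak, primitive endoderm or fibroblast cells in the fall of Hmga2 was not tested.

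Most of the sequence of Hmga1b, a close copy on chromosome 11, also occurs in Hmga1, so the value of Hmga1 alone is uncertain. The share of Hmga1 that occurs in Hmga1b was not computed. Of 1551 windows of 76 bases, the read length, in the Hmga1b transcript, 1299 (83.8%) also occur in Hmga1. Hmga1 was measured at 656.2, 285.7 and 602.5 TPM in ESCs and at 951.9, 910.1 and 1050 TPM in EpiLCs. ESC replicate 2 was far below the other ESC libraries. Its log2 fold change was 0.86 (SE 0.28) with an adjusted p of 0.0431 in edgeR's test, and the call was lost without EpiLC replicate 1, 2 or 3 (adjusted p = 0.0980, 0.0815 and 0.116). Without ESC replicate 2 it was 0.57, with an adjusted p of 0.00226.

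The Hmga1b row held 511.9, 810.5 and 478.3 TPM in ESCs and 820.2, 918.8 and 767.5 TPM in EpiLCs, and was highest among ESCs where Hmga1 was lowest. Its log2 fold change was 0.42 (SE 0.20, adjusted p = 0.120, edgeR). Summed over both rows, an analysis added after the data were seen, the level was 1168, 1096 and 1081 TPM in ESCs and 1772, 1829 and 1818 TPM in EpiLCs. The sum was tight in each group and separated them. Its log2 fold change was 0.65 (SE 0.05), or 1.57-fold, with an adjusted p of 2.11e-04 in edgeR's test.

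As a share of Hmga1 plus Hmga2, Hmga2 took 17.4%, 25.6% and 7.83% in ESCs and 3.25%, 2.54% and 2.42% in EpiLCs (difference -14.2 percentage points, exact permutation test, two-sided, p = 0.1, the smallest possible). With Hmga1b added to Hmga1, the share was 7.79% ± 3.07 in ESCs and 1.49% ± 0.256 in EpiLCs (SD, n = 3), a difference of -6.30 percentage points. From expected counts per library, which are not scaled for length, the difference in the share of Hmga1 plus Hmga2 was -24.6 percentage points.

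**Figure D3:**
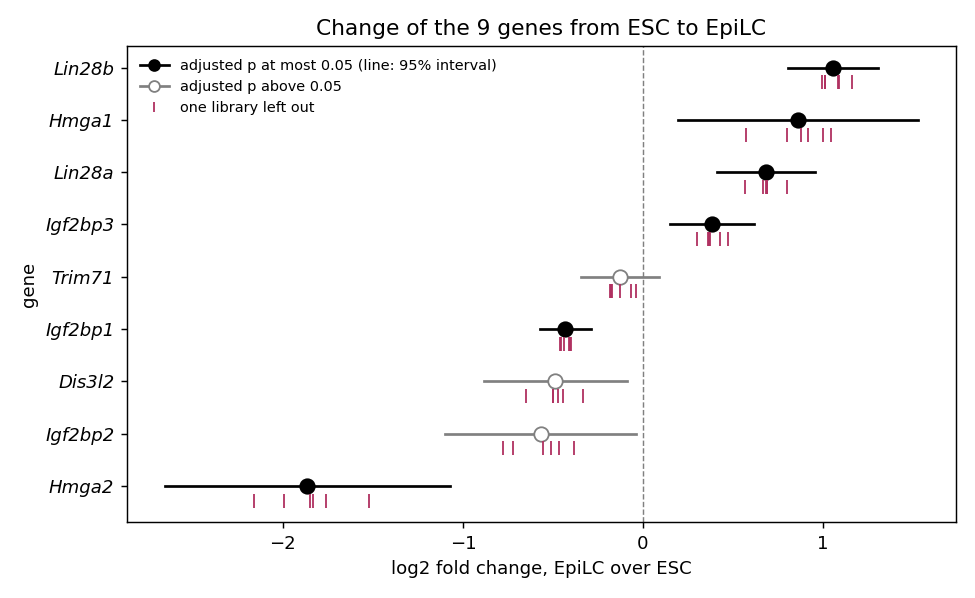
Log2 fold change of each of the 9 genes (horizontal axis, EpiLC over ESC), with 95% intervals from edgeR's test, filled circles for an adjusted p at most 0.05, and red ticks for the fits without each library in turn. The values run from -1.86 for Hmga2 to 1.06 for Lin28b, and no tick crosses 0.

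Ordered by mean TPM in ESCs, the genes ran Hmga1, Lin28a, Igf2bp1, Hmga2, Igf2bp3, Trim71, Igf2bp2, Lin28b and Dis3l2. In that order Hmga1 overlapped Lin28a only through ESC replicate 2, where Hmga1 and Hmga1b divided differently. Hmga2, Igf2bp3, Trim71 and Igf2bp2 overlapped each other, while the other neighbours were separate in every library. In EpiLCs the order was Hmga1, Lin28a, Igf2bp1, Igf2bp3, Trim71, Igf2bp2, Lin28b, Hmga2 and Dis3l2, and the only neighbours that overlapped were Igf2bp2 and Lin28b. Hmga2 thus went from rank 4 to rank 8, and Lin28b from rank 8 to rank 7.

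The number of let-7 seed matches and the change of the 9 genes can be read side by side. Lin28b and Igf2bp1, with 5 matches each, changed by 1.06 and -0.43 on the log2 scale. Lin28a and Igf2bp2, with 2 each, were at 0.68 and -0.57. Hmga2 and Trim71, with 7 and 6 matches, were at -1.86 and -0.13. Igf2bp3 and Hmga1, with 1 each, were at 0.38 and 0.86, and Dis3l2, with none, at -0.49. Genes with 5 or more matches thus included the largest rise and the largest fall of the 9.

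**Figure D4:**
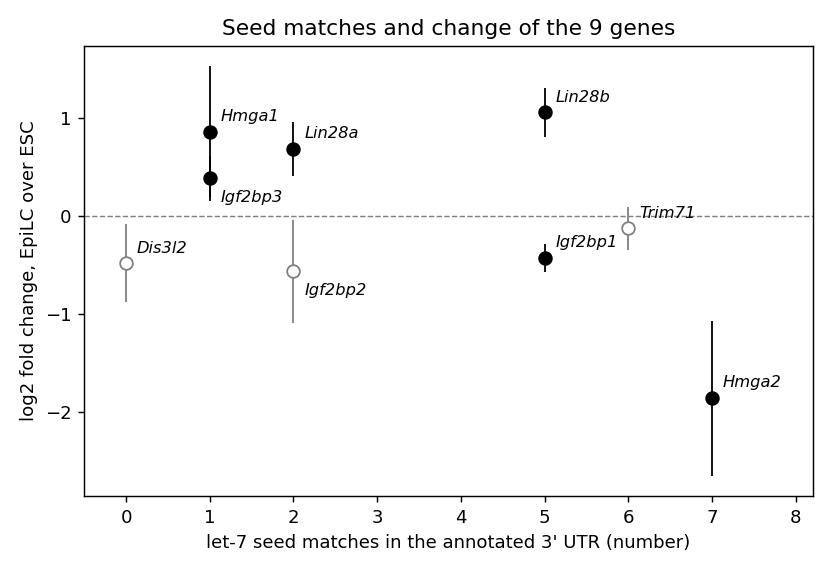
Log2 fold change (vertical axis, EpiLC over ESC, with 95% intervals) against the number of let-7 seed matches in the annotated 3′ UTR (horizontal axis) for the 9 genes, filled where the adjusted p is at most 0.05. Genes with 5 or more matches lie between -1.86 and 1.06.

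Over all 13751 tested genes with an annotated 3′ UTR, 22.7% were called higher and 23.1% lower. Of the 81 genes with 3 or more matches, 26 (32.1%) were called higher and 13 (16.0%) lower, and of the 11547 without a match, 22.3% and 23.4%. Genes with more matches have longer UTRs, with medians of 4514 and 928 bases in those groups. Of the 2554 genes with no match and a UTR of at least 2000 bases, a group chosen after the values were seen, 27.1% were called higher and 22.7% lower. Whether UTR length accounts for the remaining difference was not tested. Of all genes, 6 have at least 3 8mers, and among them Nr6a1 (1.62), Fign (0.88) and Fignl2 (0.78) were called higher and Igf2bp1 (-0.43) lower, while Trim71 (-0.13) and Trim6 (-0.24) were not called.

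Mature let-7 itself was not measured by these poly(A) mRNA libraries. The table lists 12 let-7 and Mir98 hairpin genes, and all 12 are listed at 0 in all 6 libraries. The hairpins differ in the GGAG motif that LIN28 binds between the mature arms, which 9 of the 12 hold and Mir98, Mirlet7b and Mirlet7c-2 do not. The hairpin of Mirlet7g is shown as one with the motif (in capitals) and that of Mirlet7b as one without it, both from RefSeq (GRCm38.p6).
Mirlet7g chr9:106178840-106178927 (+): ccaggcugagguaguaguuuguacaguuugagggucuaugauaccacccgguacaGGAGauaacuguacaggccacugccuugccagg
Mirlet7b chr15:85707319-85707403 (+): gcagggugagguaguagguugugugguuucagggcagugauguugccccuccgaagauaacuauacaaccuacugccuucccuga

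Among 16 genes of miRNA processing and silencing, 6 were called higher, 2 lower and 8 were not called, with a median log2 fold change of 0.07, where 22.6% of all genes tested were called higher and 22.8% lower. Prkra, which encodes a partner of Dicer, rose by 0.99 (adjusted p = 7.90e-04, edgeR), from 17.3 to 21.2 TPM in ESCs to 36.8 to 41.6 TPM in EpiLCs. Dgcr8, which encodes the partner of Drosha, rose by 0.64 (adjusted p = 0.00140, edgeR). The nucleases Drosha (-0.08) and Dicer1 (-0.19) were not called. Ago2 (-0.49, adjusted p = 0.0190, edgeR) and Ago1 (-0.29, adjusted p = 0.0141, edgeR), which encode Argonaute proteins, fell, each called in 4 of the 6 fits that left out a library (Ago2 not without EpiLC replicate 1 or 3, Ago1 not without EpiLC replicate 1 or 2). Tnrc6c, which encodes an Argonaute-binding silencing factor, was called higher at 0.36 (adjusted p = 0.0470, edgeR), a call that held only without ESC replicate 3. Without EpiLC replicate 1, 2 genes were called higher and 0 lower, and without EpiLC replicate 2, 3 were called higher and 1 lower. Without EpiLC replicate 3, 1 was called lower.

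Among 20 genes of RNA tailing and decay, 4 were called higher, 5 lower and 11 were not called, with a median of 0.05, shares close to the 22.6% and 22.8% of all genes tested. Dis3l, a cytoplasmic relative of Dis3l2 that works with the exosome, rose by 0.61 (adjusted p = 0.00180, edgeR). The exosome subunit genes Exosc6 (0.32) and Exosc7 (0.28) were called higher and Exosc5 (-0.39) lower. The Exosc6 call was lost without ESC replicate 1 or EpiLC replicate 1 or 3, that of Exosc7 without ESC replicate 1 or any EpiLC library, and that of Exosc5 without EpiLC replicate 1. Papd7 (-0.43), which encodes a noncanonical poly(A) polymerase, and Xrn1 (-0.43), a 5′ to 3′ exonuclease gene, were called lower. The TPM of Xrn1 overlapped between the groups, and its call held only without ESC replicate 2 or EpiLC replicate 2. Of the uridylyltransferases that act with LIN28A, Zcchc6 was at -0.31 (adjusted p = 0.0364, edgeR) and Zcchc11 at -0.36 (adjusted p = 0.108, edgeR). The counts rest on single libraries, with 1 to 5 called higher and 1 to 6 lower when each was left out. They were lowest without EpiLC replicate 1, with 1 higher and 1 lower. Without ESC replicate 1 and without EpiLC replicate 3 they were 1 higher and 2 lower, and without ESC replicate 3 or EpiLC replicate 2, 3 were called lower.

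Among 26 tested let-7 targets other than the 9 genes, 8 were called higher, 4 lower and 14 were not called, with a median of 0.06, where 22.6% of all genes were called higher and 22.8% lower, and Acvr1c had too few counts. Igdcc3, an immunoglobulin superfamily receptor gene, rose by 2.04 (adjusted p = 9.02e-04, edgeR), from 4.28 to 6.79 TPM in ESCs to 17.2 to 27.3 TPM in EpiLCs. Nr6a1, which encodes germ cell nuclear factor, rose by 1.62 (adjusted p = 2.14e-04, edgeR). Cdk6, a cell cycle kinase gene, fell by 0.39 (adjusted p = 0.00534, edgeR). Thbs1, which encodes a matrix glycoprotein, was called lower at -3.94 (adjusted p = 0.0184, edgeR), with 172.4, 1022 and 65.4 TPM in ESCs against 15.8 to 38.4 TPM in EpiLCs. Without ESC replicate 2 it was at -2.12 (adjusted p = 0.0105, edgeR), and the call was lost without EpiLC replicate 1, 2 or 3. Ccnd2, which encodes cyclin D2, was called lower at -2.49 (adjusted p = 0.0151, edgeR), with 55.5, 128.2 and 22.1 TPM in ESCs against 8.66 to 17.2 TPM in EpiLCs. Without ESC replicate 2 it was at -1.67 (adjusted p = 0.0156, edgeR), and the call was lost without EpiLC replicate 1 or 3. Among ESCs, both genes had their maximum in replicate 2 and their minimum in replicate 3, in the order of the fibroblast markers, whose part in these falls was not tested. Without ESC replicate 2, 7 of the list were called lower and 7 higher, without EpiLC replicate 1, 1 was called lower, and without EpiLC replicate 2 or 3, 2 were.

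Of 5 RNAs bound by IGF2BP proteins, 3 were called lower, with a median of -1.47, where 22.8% of all genes tested were called lower. H19, an imprinted noncoding RNA, fell by 2.80 (adjusted p = 9.45e-04, edgeR), from 85.7, 102.3 and 40.3 TPM to 13.2, 10.8 and 9.81 TPM. Igf2, its imprinted neighbour that encodes a growth factor, fell by 1.47 (adjusted p = 0.00985, edgeR), from 72.1, 73.2 and 50.7 TPM to 28.1, 13.8 and 32.4 TPM. Cd44, a cell adhesion gene, was called lower at -2.41 (adjusted p = 0.0412, edgeR), but its groups overlap, with 30.7, 113.7 and 11.5 TPM in ESCs and 6.41 to 13.7 TPM in EpiLCs, and the call held only without ESC replicate 3. Among ESCs, each of these genes had its maximum in replicate 2 and its minimum in replicate 3, the order of the fibroblast markers, whose part was not tested. For Igf2, ESC replicates 2 and 1 were nearly equal (73.2 and 72.1 TPM). Without ESC replicate 2, H19 was at -2.53 (adjusted p = 0.00112, edgeR), Igf2 at -1.42 (adjusted p = 0.0171, edgeR) and Cd44 at -1.12 (adjusted p = 0.0701, edgeR). Actb (-0.06) and Myc (-0.17) were not called.

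Of 7 other high-mobility-group genes, 5 were called higher and 0 lower, with a median of 0.63, where 22.6% of all genes tested were called higher and 22.8% lower. In each fit that left out a library, 4 were called higher and 0 lower. Hmgn3 (1.33, adjusted p = 0.0114, edgeR) and Hmgn5 (1.32, adjusted p = 9.00e-04, edgeR), which encode nucleosome-binding proteins, rose most, and Hmgb3 rose by 0.81 (adjusted p = 0.0121, edgeR). Hmga2 was the only member of the HMGA, HMGB and HMGN genes examined that was called lower.

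**Figure D5:**
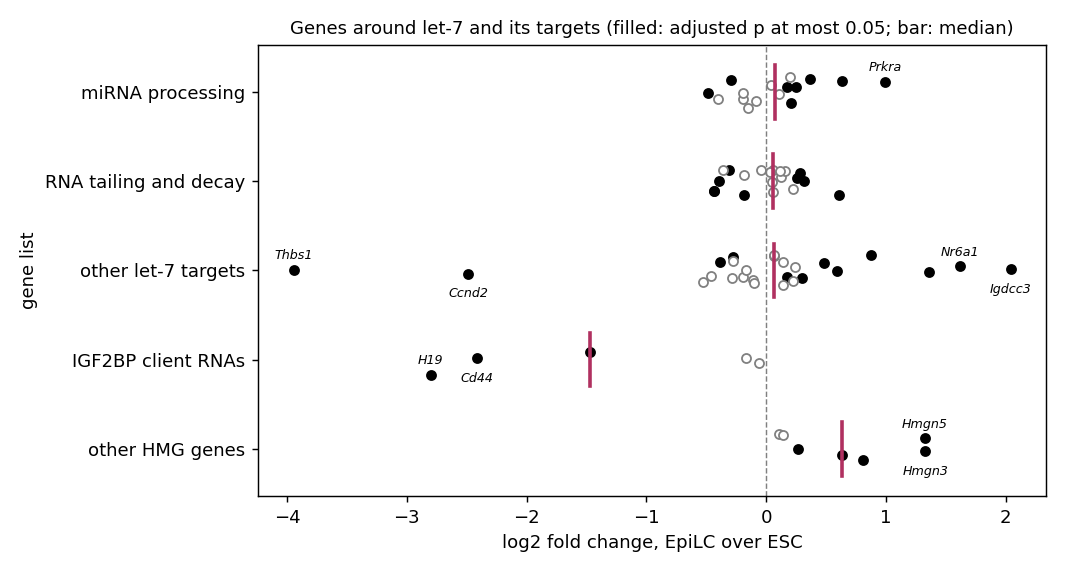
Log2 fold change of the tested genes of 5 lists (horizontal axis, EpiLC over ESC), filled where the adjusted p is at most 0.05, with a red bar at each list's median. The medians of the miRNA processing, tailing and let-7 target lists lie between 0.05 and 0.07, that of the high-mobility-group genes at 0.63 and that of the IGF2BP client RNAs at -1.47.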

How the data were processed

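RNA-seq libraries of mouse ESCs (0 h) and EpiLCs (48 h per the labels) were analysed, 3 of each. Per the labels and methods, the authors prepared strand-specific poly(A) libraries, trimmed 76-base single-end reads with cutadapt 1.16, mapped them with STAR 2.5.2a to mm10 and counted RefSeq genes with RSEM 1.3.0. The authors deposited RSEM expected counts, which divide reads shared by several genes and are not normalized, and TPM, which are scaled for length and library. Expected counts were rounded to whole numbers and tested with edgeR 4.0.16 (R 4.3.3; TMM, filterByExpr, quasi-likelihood test), with Benjamini-Hochberg adjustment over all 14468 genes tested and a threshold of 0.05. Fold changes are those of edgeR, and levels and shares are in TPM.

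Totals ran from 16967741 to 35096210 expected counts, so that 3 counts correspond to 0.0855 to 0.177 CPM, for counting error only. P-values measure the spread between replicates of a single line. Seed matches were counted in the 3′ UTRs of GENCODE vM21 transcripts (GRCm38), and miRNA sequences and gene positions were taken from RefSeq. The test was tried on simulated data.

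The genes and lists were chosen with earlier results of these data known. The 9 genes are named, then up to 3 called rises and 3 called falls of each list with the largest change, and the 3 genes nearest in profile to each Lin28 gene. A gene of the let-7 target list that the rule would name is not reported here. Genes outside this rule (Drosha, Dicer1, Zcchc6, Zcchc11, Actb, Myc, Hmga1b, Trim6, Fign, Fignl2 and the let-7 host genes) were named after their values were seen. Alternatives were DESeq2 1.42.0, upper-quartile and DESeq2 size factors, other filters, the replicate block, each library left out, shares from expected counts, and limma 3.58.1 on log2(TPM + 1) and log2(TPM + 0.1). Summing Hmga1 and Hmga1b was added after the data were seen.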

Additional observations from a re-analysis of the deposited data

How the results depend on the processing

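The direction of each of the 9 genes was the same in all 127 values computed under the alternatives. With DESeq2 4 members were called lower, Igf2bp2 (-0.57, adjusted p = 0.0250) and Dis3l2 (-0.49, adjusted p = 0.0243) being added, and with DESeq2's size factors in edgeR Dis3l2 was called (-0.50, adjusted p = 0.0493). The replicate numbers were not taken to pair the libraries in the main fit. The correlation of the libraries' deviations was 0.00668, 0.186 and 0.170 for numbers 1, 2 and 3. Its mean was 0.121 for the same number and -0.0617 for different numbers, and 2 of 3 ESC libraries were nearest to their own number. These values leave the pairing undecided. With the replicate block, 6085 genes and 4 members lower were called, with Igf2bp2 at -0.58 (adjusted p = 0.0103) and Dis3l2 at -0.46 (adjusted p = 0.0467), and 2 genes of the tailing and decay list were lower.

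Without each library in turn, 4244 to 7181 genes were called (2144 to 3572 higher and 2100 to 3609 lower), the fewest without EpiLC replicate 1. Members called ran from 2 to 4 higher and from 2 to 4 lower. The log2 fold change ran from -0.78 to -0.38 for Igf2bp2, from -0.65 to -0.33 for Dis3l2, from 0.30 to 0.47 for Igf2bp3 and from 0.57 to 1.05 for Hmga1. List counts ran from 2 to 5 higher and 0 to 3 lower for miRNA processing, from 1 to 5 higher and 1 to 6 lower for tailing and decay, and from 1 to 7 lower for other let-7 targets. Beyond the smaller number of libraries, the cause was not tested. With 3 against 3, the exact test of a share cannot go below 0.1.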

Other observations

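Of the genes whose annotated transcripts overlap a let-7 hairpin on the same strand, Huwe1, the host of Mir98 and Mirlet7f-2, was at 139.6, 114.0 and 181.5 TPM in ESCs and 92.2, 113.0 and 88.4 TPM in EpiLCs (log2 fold change -0.62, adjusted p = 0.0262 in edgeR's test). Wdr82, the host of Mirlet7g, was at 109.7, 106.4 and 124.4 TPM in ESCs and 92.5, 94.0 and 92.7 TPM in EpiLCs (-0.34, adjusted p = 0.0110, edgeR). Spaca6, the host of Mirlet7e, was at 1.13 to 2.29 TPM in ESCs and 0.12 to 0.84 TPM in EpiLCs (-1.88, adjusted p = 0.0489, edgeR). Huwe1 was not called without ESC replicate 1 or EpiLC replicate 1 or 3, Wdr82 not without EpiLC replicate 1, and Spaca6 only without EpiLC replicate 2. The host of Mirlet7a-2 in the table, 3110039I08Rik, was at -0.73 and not called (adjusted p = 0.529, edgeR), and Lncppara and Mir99ahg had at most 0.09 TPM in any library. The hosts of Mirlet7a-1, Mirlet7d and Mirlet7f-1 (6720427I07Rik) and of Mirlet7i (D630033A02Rik) were not among the deposited genes and could not be read. Nor was Gm49317, a further host of Mirlet7a-2. The mRNA level of a host gene is no measure of the mature miRNA.

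Of the 25 tested genes with at least 2 let-7 8mers in the 3′ UTR, a group chosen after the values were seen, 13 (52.0%) were called higher and 3 (12.0%) lower, against 22.7% and 23.1% of all tested genes with a 3′ UTR and 27.1% and 22.7% of those with no match and a UTR of at least 2000 bases. Without Lin28a, Trim71 and Igf2bp1, it was 12 of 22 higher (54.5%) and 2 lower (9.1%), and no test was made.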
